A study of Mus musculus with 9 samples.

Results

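The 9 genes described here encode enzymes that make nucleotides: Ppat, Gart, Paics and Impdh2 of purine synthesis, Cad and Umps of pyrimidine synthesis, and Rrm1, Rrm2 and Tyms of deoxynucleotide synthesis. They were chosen by name as a set of pathway enzymes, with earlier results of these data known. All 9 were found among the 29995 genes of an expression table without immunoglobulin (Ig) genes, and all 9 were among the 12892 genes that were abundant enough to test. RNA was sequenced from B lineage cells of the spleens of 3 B6.Blimp1+/GFP mice aged 12 weeks, in which green fluorescent protein (GFP) reports expression of Blimp1, the transcription factor that marks plasma cells. All mice had been injected intraperitoneally with 50 µg of NP-LPS, a hapten coupled to lipopolysaccharide, 4 days before, so the naive cells also come from immunized, GFP-carrying animals. Naive B cells were sorted as IgD high, B220+ and NP-, NP-specific B cells, called activated B cells below, as NP+, IgD-, GFP-, CD138- and B220+, and NP-specific plasma cells as NP+, IgD-, GFP+ and CD138+ with B220 either present or absent. Cells that carried CD4, CD8a, Ter-119 or F4/80 were gated out of each group. Each group had 3 libraries, 1 per mouse.

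Cells build purines by assembling the ring on a ribose phosphate. Ppat carries out the first committed reaction, Gart and Paics catalyse later reactions of the ring, and Impdh2 turns the finished nucleotide toward guanine nucleotides. Pyrimidines are built as a free ring first: Cad is a single protein that holds the first activities of that route, and Umps attaches the ribose phosphate and makes uridine monophosphate, the parent of the other pyrimidines. Both routes feed RNA, and ribonucleotide reductase converts their products to deoxynucleotides for DNA; Rrm1 is its large, regulatory and catalytic subunit, Rrm2 the small subunit of dividing cells and Rrm2b the small subunit that is also used outside S phase. Tyms, thymidylate synthase, methylates deoxyuridine monophosphate to make the thymine nucleotide of DNA. Resting lymphocytes need little of these routes, and lymphocytes that divide are known to depend on them.

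The members lie at 8 separate places in the mouse genome (GRCm38, which is mm10, GENCODE M21). Ppat (chr5:76913249-76951578, minus strand) and Paics (chr5:76951307-76967509, plus strand) are neighbours whose starts are 271 bases apart on opposite strands, and their first exons overlap by 272 bases. The kit used does not mark the strand of a read, so reads from that overlap cannot be told apart. It holds 5.44% of the sequence of Ppat's transcripts and 7.51% of that of Paics', counted in words of 31 bases. Cad (chr5:31054780-31078479, plus strand) and Tyms (chr5:30058202-30073617, minus strand) are on the same chromosome. Gart lies at chr16:91621186-91646952 on the minus strand and Umps at chr16:33954782-33967038 on the minus strand. Impdh2 is at chr9:108560286-108565584 on the plus strand, Rrm1 at chr7:102441695-102469771 on the plus strand and Rrm2 at chr12:24708241-24714146 on the plus strand.

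The promoters of 4 members are shown because they are those of the 3 deoxynucleotide genes, which rose together in activated B cells, and of 1 purine gene, Gart, for comparison. Each is a stretch of 80 bases read 5′ to 3′ on the gene's strand from RefSeq (GRCm38.p6), with CCAAT (bound by NF-Y) or CACGTG (the E-box, bound by Myc and related factors) in capitals.
Rrm1, chr7:102441589-102441668, plus strand: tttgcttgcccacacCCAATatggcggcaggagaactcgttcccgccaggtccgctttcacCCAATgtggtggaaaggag
Rrm2, chr12:24708166-24708245, plus strand: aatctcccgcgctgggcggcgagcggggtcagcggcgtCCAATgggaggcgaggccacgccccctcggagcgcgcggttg
Tyms, chr5:30073644-30073723, minus strand: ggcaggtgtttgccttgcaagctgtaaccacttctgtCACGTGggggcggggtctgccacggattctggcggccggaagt
Gart, chr16:91646973-91647052, minus strand: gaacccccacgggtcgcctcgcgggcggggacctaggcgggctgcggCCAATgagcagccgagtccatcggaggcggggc

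RefSeq windows from 250 bases before to 50 bases after the start were matched for 9 of 9 members and searched on both strands. The motif CCAAT was present in 5 of 9: in Rrm1 91 and 45 bases before the start, in Rrm2 50, in Gart 33 and in Paics 23 bases before it, and in Impdh2 7 bases after it. Of all 32851 windows, 37.4% held it. CACGTG was present in 3 of 9, Paics (203 bases before the start, within the first exon of Ppat), Impdh2 (110) and Tyms (61), against 7.15% of all windows. Distances are from RefSeq's start, which for Impdh2 and Rrm2 lies downstream of the GENCODE start given above. The CACGTG of Impdh2 therefore falls inside the GENCODE gene model, as do the last bases of the stretch printed for Rrm2. TTTCGCG or TTTGGCG, forms of the site of the E2F factors of S phase, were in 0 of 9 windows and in 2.37% of all windows. Thus the 3 deoxynucleotide genes do not share 1 of the motifs searched: Rrm1 and Rrm2 have CCAAT and Tyms has CACGTG. A match describes letters only, and their absence from a window says nothing of the factor.

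Values are TPM, a transcript abundance scaled to a fixed sum per library and corrected for transcript length, so that levels of different genes can be set side by side. The estimated reads per library were 20189900 to 38602300 after Ig genes were left out, lowest in plasma cells at 20189900 to 22137400, and a member had from 702 to 21408 estimated reads in any 1 library. The sorted groups matched their labels by marker genes: 4 B cell markers summed to 4758 to 5120 TPM in naive B cells, 3766 to 4106 in activated B cells and 613 to 661 in plasma cells, and 4 plasma cell markers to 118 to 139, 166 to 182 and 4723 to 5805. Markers of T cells summed to at most 4.71 TPM in any library. The 3 measured macrophage markers summed to 5.23 to 6.12, 52.0 to 69.0 and 32.0 to 86.1 TPM, and, seen by gene after the sums were known, the difference between naive and activated B cells was that of Cd68 (3.88 to 4.05 against 45.0 to 67.6 TPM), while Lyz2 and Csf1r overlapped between these groups and Lyz2 reached 48.2 TPM in plasma cell replicate 3. The 5 erythroid markers summed to 2.21 to 24.8 TPM over all libraries. Plasma cell replicate 3 stood apart with 4889 TPM of 6 liver markers, against 22.8 and 26.3 in the other plasma cell libraries and at most 5.52 elsewhere. No member's call changed without that library. In bulk samples, fewer cells that use a gene and less RNA per cell cannot be told apart.

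**Figure D1:**
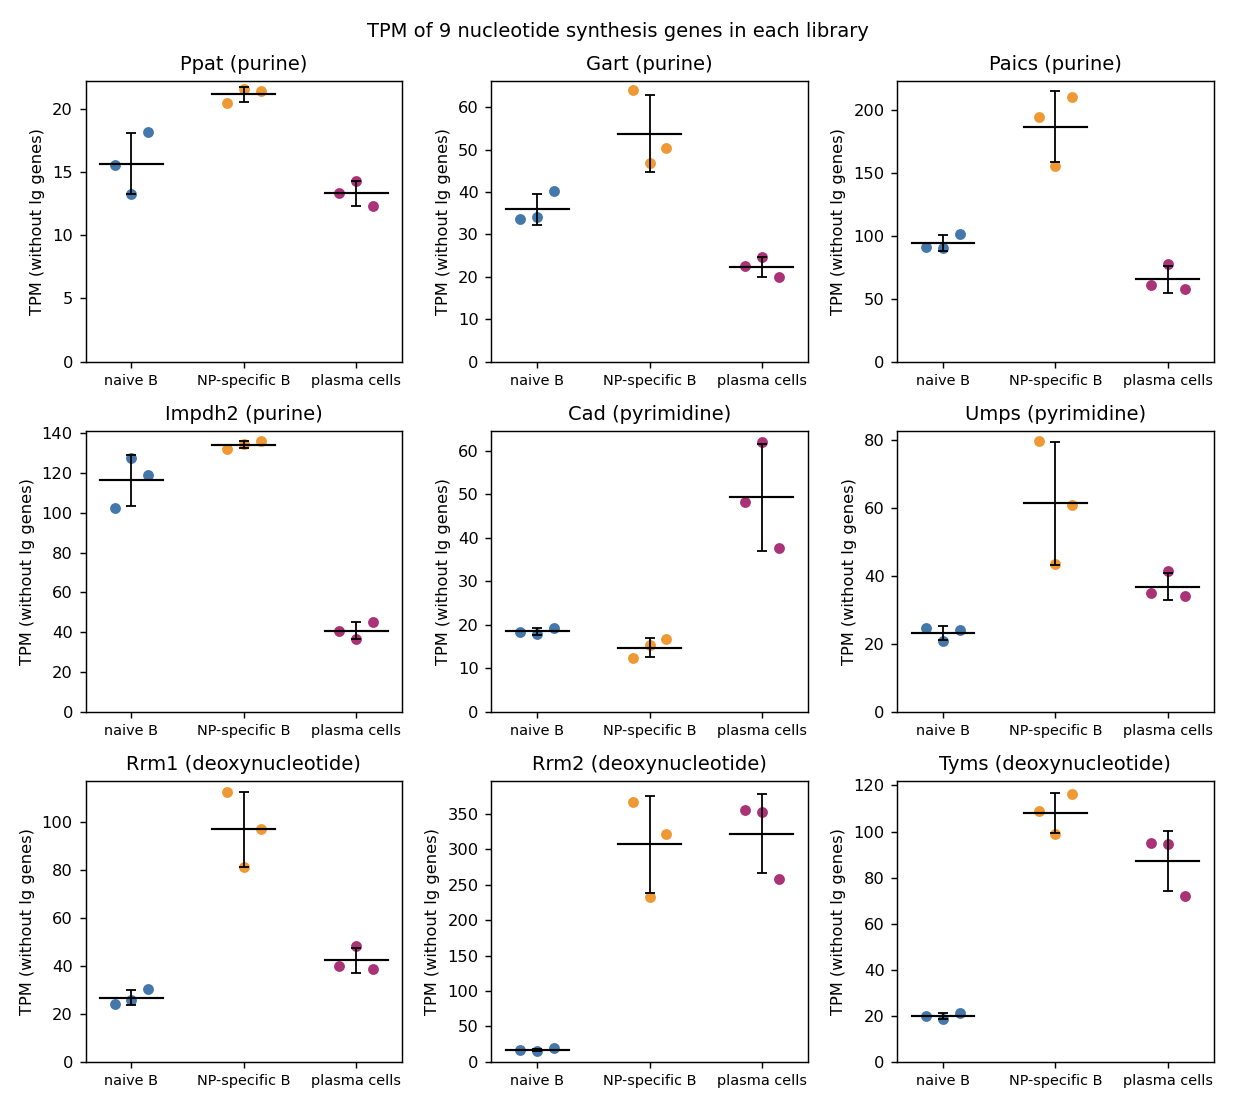
TPM of each member (vertical axis, linear, from 0) in naive B cells, activated (NP-specific) B cells and plasma cells. Dots are the 3 libraries of a group, bars the mean and SD. The deoxynucleotide genes are lowest in naive B cells, Cad is highest in plasma cells, and Impdh2 is lowest in plasma cells.

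The 9 genes did not keep a common order of levels across the groups. In naive B cells Impdh2 (116.3 ± 12.9 TPM, SD, n = 3) and Paics (94.4 ± 6.31) were highest, followed by Gart (35.9 ± 3.71) and Rrm1 (26.8 ± 3.24). Below Rrm1 came Umps, Tyms, Cad, Rrm2 and Ppat, with means from 23.2 down to 15.7 TPM, and each gene's libraries overlapped those of the next from Rrm1 downward. In activated B cells Rrm2 was first at 307.3 ± 68.4 TPM, ahead of Paics, Impdh2, Tyms, Rrm1, Umps, Gart, Ppat and Cad, of which only Tyms and Rrm1, and Umps and Gart, overlapped as neighbours. In plasma cells Rrm2 was again first at 322.4 ± 55.6 TPM, and Tyms, Paics, Cad, Rrm1, Impdh2 and Umps followed in a run of overlapping neighbours from 87.2 to 36.8 TPM. Gart and Ppat were last there, apart from the others and from each other. Rrm2 thus went from next to last in naive B cells to first in both NP-specific groups.

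Each pair of groups was compared with limma. A gene passed the test when its adjusted p-value was under 0.05 and its fold change over 2. In activated B cells against naive B cells, 4 of 9 members were higher and 0 lower, where 18.5% of all tested genes passed (8.05% higher and 10.5% lower). In plasma cells against activated B cells, 1 member was higher and 4 lower, where 32.1% passed (10% higher and 22.1% lower). Plasma cells had 3 members higher and 1 lower than naive B cells, where 37.7% passed (11.5% higher and 26.2% lower). With Ig genes kept, 1 member was higher and 4 lower in that comparison, and under median-of-ratios scaling or quantile normalization 5 were higher. By the adjusted p-value alone, the members were 7 higher in the first comparison, 1 higher and 6 lower in the second, and 5 higher and 3 lower in the third, where 42.4%, 53.8% and 60.4% of all tested genes were under that threshold. The libraries of both groups were fully apart for 9 of 9 members in the first comparison (8 higher, 1 lower), 8 of 9 in the second (1 higher, 7 lower) and 8 of 9 in the third (5 higher, 3 lower). That was so for 55.9% (23.6% higher, 32.4% lower), 58.2% (17.3% and 40.9%) and 69.7% (21.0% and 48.7%) of all tested genes. These comparisons share libraries and are not independent of one another.

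The 3 enzymes of deoxynucleotide synthesis all rose from naive to activated B cells, and from there to plasma cells their calls depended on the scaling. Rrm2 and Tyms, the small subunit of ribonucleotide reductase and thymidylate synthase, did not pass the test between plasma cells and activated B cells, while Rrm1, the large subunit, fell. With Ig genes kept all 3 were lower in plasma cells (log2 changes of -1.12 for Rrm2, -1.50 for Tyms and -2.34 for Rrm1), and under median-of-ratios scaling the change of Rrm1 was -0.80 and did not pass. Their median log2 change was 2.40 in activated against naive B cells, -0.31 in plasma cells against activated B cells and 2.09 in plasma cells against naive B cells, beside -0.16, -0.29 and -0.47 over all tested genes.

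Rrm2 was at 16.5, 15.4 and 18.9 TPM in naive B cells, 367.4, 232.8 and 321.6 in activated B cells and 355.7, 353.2 and 258.2 in plasma cells. The libraries of the NP-specific groups overlapped each other and lay far above the naive libraries. The log2 change was 4.11 ± 0.24 (SE, adjusted p = 1.83e-06) from naive to activated B cells, a 17.3-fold rise. It was 4.20 ± 0.24 (adjusted p = 1.12e-07) between naive B cells and plasma cells. Between the NP-specific groups it was 0.09 with a 95% interval from -0.28 to 0.46 (adjusted p = 0.682).

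Tyms was at 20.0, 18.7 and 21.0 TPM in naive B cells, 109.1, 98.9 and 116.4 in activated B cells and 95.2, 94.5 and 72.0 in plasma cells. Every plasma cell library lay below every activated B cell library, by a margin that is small beside the distance to the naive libraries. The rise from naive to activated B cells was 2.40 ± 0.15 on the log2 scale (adjusted p = 2.37e-06), or 5.28-fold. Plasma cells were 4.27-fold above naive B cells (log2 change 2.09 ± 0.15, adjusted p = 7.02e-07). With Ig genes kept that log2 change was 0.88 and did not pass, and on the deposited TPM with Ig genes the log2 ratio of means was 0.45. The log2 change between plasma cells and activated B cells was -0.31, with an interval from -0.57 to -0.04 (adjusted p = 0.0537).

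Rrm1 was at 24.2, 25.8 and 30.4 TPM in naive B cells, 112.7, 81.4 and 97.3 in activated B cells and 40.0, 48.5 and 38.8 in plasma cells. The 3 groups did not overlap, and plasma cells lay between the others. It rose 3.53-fold from naive to activated B cells (log2 change 1.82 ± 0.16, adjusted p = 1.37e-05). From there to plasma cells its log2 change was -1.17 ± 0.15 (adjusted p = 5.75e-05), a 2.25-fold fall. Against naive B cells plasma cells had a log2 change of 0.65 (interval 0.27 to 1.03, adjusted p = 0.00679), under the 2-fold limit.

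The transcripts of the subunits of ribonucleotide reductase therefore stood in different proportions in each group. A ratio of TPM within a library does not depend on how libraries are scaled. Rrm2 relative to Rrm1 was 0.683, 0.595 and 0.621 in naive B cells, 3.26, 2.86 and 3.31 in activated B cells and 8.90, 7.28 and 6.66 in plasma cells, with means of 0.633 ± 0.045, 3.14 ± 0.245 and 7.62 ± 1.16. The groups did not overlap. Rrm2b, the alternative small subunit, averaged 29.7 ± 3.51 TPM in naive B cells, 25.4 ± 5.23 in activated B cells and 7.72 ± 0.383 in plasma cells. It fell 3.08-fold between activated B cells and plasma cells (log2 change -1.63, adjusted p = 4.45e-05). Rrm2 relative to Rrm2b was 0.573 ± 0.068 in naive B cells, 12.5 ± 4.16 in activated B cells and 41.6 ± 5.45 in plasma cells, so Rrm2b transcripts were the more abundant in every naive library and Rrm2 in every other. For both ratios each pair of groups gave p = 0.1 (exact permutation test of the log2 ratio, two-sided), which is the smallest p-value that 3 libraries against 3 can give.

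**Figure D2:**
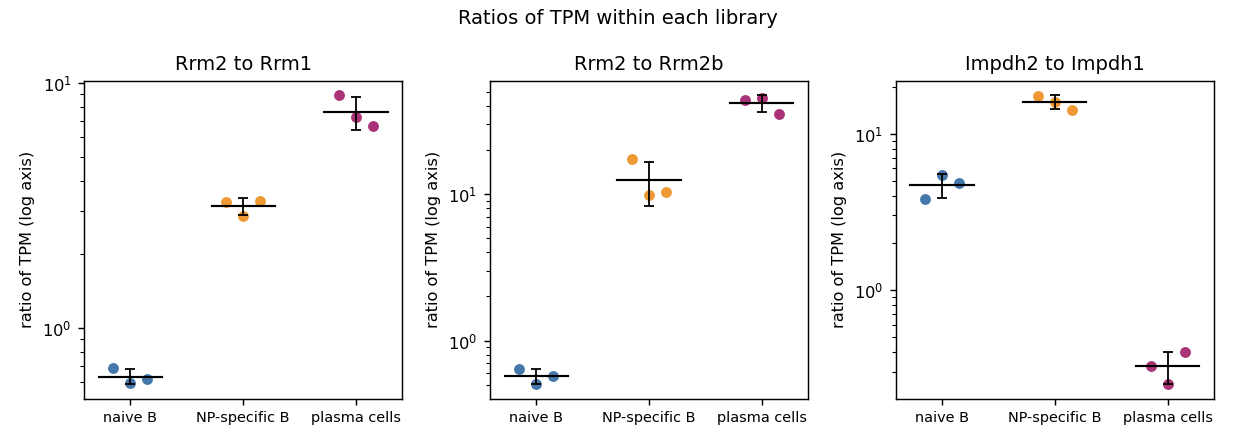
Ratios of TPM within each library (vertical axis, log scale) for Rrm2 to Rrm1, Rrm2 to Rrm2b and Impdh2 to Impdh1. Dots are libraries, bars the mean and SD of 3. Both Rrm2 ratios are lowest in naive B cells and highest in plasma cells, and Impdh2 to Impdh1 averages 0.326 in plasma cells.

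The genes with TPM patterns most like those of the deoxynucleotide members were Cep55, Kpna2, Parpbp, Kif22 and Ccnb2, with Pearson correlations of 0.997 to 0.999 to the mean standardized pattern over 9 libraries. The libraries fall into 3 groups, so these values mostly describe agreement of the group means. Among 10 proliferation markers, 10 were higher in NP-specific than in naive B cells, with a median log2 change of 3.39. Of the same markers, 7 were higher in plasma cells than in naive B cells, and 0 passed between plasma cells and activated B cells, where their median was -0.46 and 1 was higher and 7 lower by limma's adjusted p-value alone. Their summed TPM was 220.3 to 254.2 in naive B cells, 1282 to 1663 in activated B cells and 1013 to 1247 in plasma cells. activated B cell replicate 2 had the lowest sum of its group, and in its group it was also lowest for Gart, Paics, Umps, Rrm1, Rrm2 and Tyms. The part of cycling cells in the members' differences was not tested.

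Purine synthesis differed from this. In activated against naive B cells 0 of its 4 members passed, although 3 had an adjusted p-value under 0.05 by limma. In plasma cells against activated B cells 3 of 4 fell, where 22.1% of all tested genes were lower. Of those 3, Gart did not pass under median-of-ratios scaling or quantile normalization. The median log2 changes were 0.49 in activated against naive B cells, -1.36 in plasma cells against activated B cells and -0.61 in plasma cells against naive B cells. Over all tested genes they were -0.16, -0.29 and -0.47, so the last purine median lay near that of all genes. In each of the 4, every activated B cell library was above every naive library, as was the case for 23.6% of all tested genes.

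Paics, a bifunctional enzyme of the middle of the route, was at 91.0, 90.6 and 101.7 TPM in naive B cells, 194.7, 155.7 and 210.8 in activated B cells and 60.9, 78.0 and 57.7 in plasma cells. The 3 groups did not overlap, and plasma cells were lowest. Against naive B cells Paics had a log2 change of -0.54 in plasma cells (limma, adjusted p = 0.0102). This was under 2-fold and near the median of -0.47 over all tested genes. Over the alternatives it ranged from -1.74 to -0.048, so how far plasma cells lay below naive B cells depended on the scaling. Its log2 change from naive to activated B cells was 0.96 ± 0.14 (adjusted p = 0.000344), a fold of 1.95 that lies just under the limit. The value was 1.02 without naive replicate 3, 1.09 without activated B cell replicate 2, and 1.07 under median-of-ratios scaling of the libraries, and Paics passed in all of these. In 15 of the 19 alternatives it did not pass, and the value ranged from 0.81 to 1.09. It fell by 1.50 ± 0.14 on the log2 scale from activated B cells to plasma cells (adjusted p = 7.74e-06).

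Gart, which carries 3 reactions of the route in 1 protein, was at 33.5, 34.1 and 40.2 TPM in naive B cells, 64.0, 47.0 and 50.5 in activated B cells and 22.4, 24.7 and 19.9 in plasma cells. It followed the order of Paics, again with no overlap. In plasma cells against naive B cells the log2 change of Gart was -0.68 (limma, adjusted p = 0.0041), under 2-fold. Over the alternatives that change ranged from -1.83 to -0.19. Its log2 change was 0.56 ± 0.15 (adjusted p = 0.0111) in activated against naive B cells, a fold of 1.47. Its log2 change was -1.23 ± 0.16 in plasma cells against activated B cells (adjusted p = 5.94e-05). That change was -0.78 under quantile normalization, and Gart passed neither there nor under median-of-ratios scaling. The transcripts share 17.2% of their words of 31 bases with other genes for Gart and 16.7% for Paics, so their read assignment is less certain than that of Cad, which shares 0. This limit is not one of purine genes alone: the share was 14.4% for Rrm2b, 12.8% for Rrm2, 11.4% for Tyms and 5.35% for Rrm1. Son, an RNA-binding protein gene whose start lies 554 bases from that of Gart on the other strand, had log2 changes of -0.15, -0.33 and -0.48 in the 3 comparisons and passed in none.

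Ppat, the amidotransferase of the first committed reaction, was the lowest purine member at 15.6, 13.3 and 18.1 TPM in naive B cells, 20.5, 21.6 and 21.4 in activated B cells and 13.3, 14.3 and 12.3 in plasma cells. activated B cells were highest, and naive and plasma cell libraries overlapped. It passed in no comparison, with log2 changes of 0.42 ± 0.15 (adjusted p = 0.0413), -0.64 ± 0.15 (adjusted p = 0.00422) and -0.22 ± 0.16 (adjusted p = 0.246), in the order used above. Paics relative to Ppat, its head-to-head neighbour, was 6.09 ± 0.636 in naive B cells, 8.86 ± 1.44 in activated B cells and 4.91 ± 0.476 in plasma cells, and the groups did not overlap. Groups that do not overlap always give the smallest p-value of the exact permutation test (two-sided, p = 0.1 for each pair), so it adds nothing to this.

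Impdh2, the inosine monophosphate dehydrogenase of dividing cells, was at 102.2, 127.5 and 119.1 TPM in naive B cells, 132.3, 134.4 and 136.0 in activated B cells and 40.5, 36.6 and 45.0 in plasma cells. The naive and activated B cell libraries lay close together and plasma cells lay far below both. The log2 change between the former was 0.20 (interval -0.03 to 0.43, adjusted p = 0.149). It fell 3.26-fold from activated B cells to plasma cells (log2 change -1.70 ± 0.12, adjusted p = 6.87e-07) and was 2.84-fold lower in plasma cells than in naive B cells (-1.50 ± 0.12, adjusted p = 1.53e-06). A pseudogene copy, Impdh2-ps, shares 43.2% of its words of 31 bases and has no row in the table used, so how its reads were assigned is uncertain.

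Impdh1, which encodes the other form of that enzyme, moved the opposite way. It was at 26.5, 23.3 and 24.7 TPM in naive B cells, 7.54, 8.39 and 9.51 in activated B cells and 124.8, 146.8 and 111.5 in plasma cells. It fell 2.85-fold from naive to activated B cells (log2 change -1.51 ± 0.19, adjusted p = 0.000136) and was 14.3-fold higher in plasma cells than in activated B cells (3.84 ± 0.17, adjusted p = 1.83e-08). Impdh2 relative to Impdh1 averaged 4.71 ± 0.815 in naive B cells, 16.0 ± 1.63 in activated B cells and 0.326 ± 0.077 in plasma cells, so the more abundant transcript was Impdh2 in all 6 B cell libraries and Impdh1 in all 3 plasma cell libraries. The exact permutation p of this ratio was 0.1 for each pair of groups, the smallest possible value. The sum of both genes ranged far less: 128.8, 150.8 and 143.8 TPM in naive B cells, 139.9, 142.7 and 145.5 in activated B cells and 165.3, 183.4 and 156.5 in plasma cells. The naive and activated libraries overlapped in this sum, and plasma cells were above both. With Ig genes kept this order turned: the sum was 132.1 ± 10.4 TPM in naive B cells, 127.7 ± 3.93 in activated B cells and 49.1 ± 2.03 in plasma cells.

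**Figure D3:**
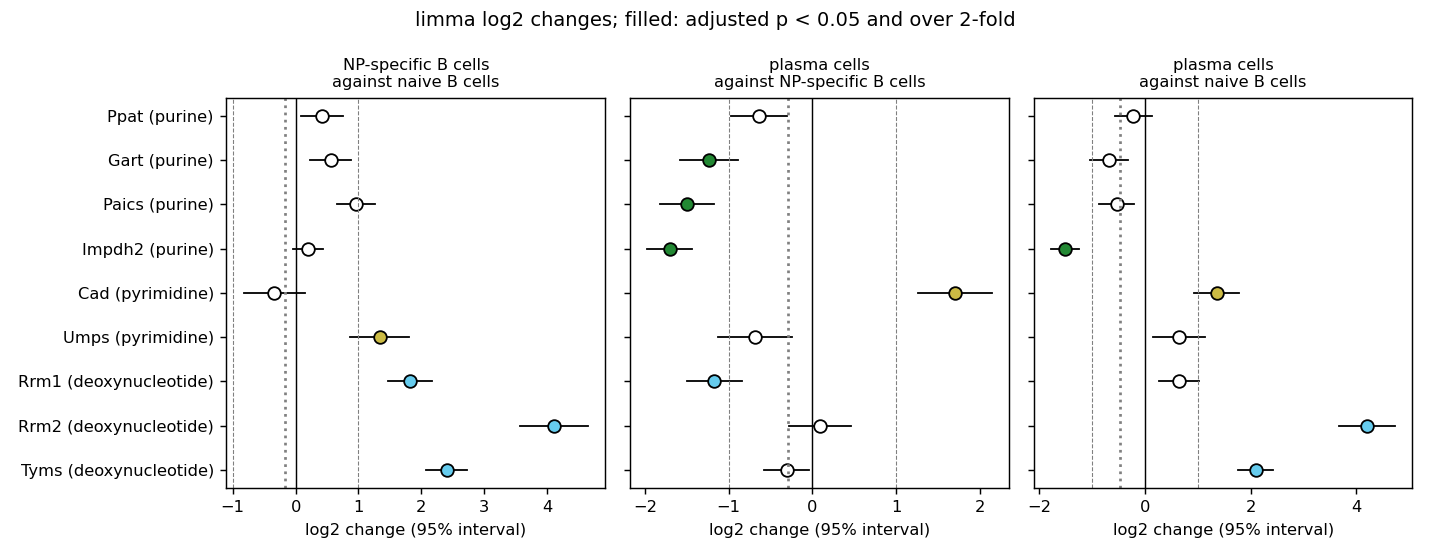
Log2 change of each member (horizontal axis) with its 95% interval in the 3 comparisons; filled points passed the limma test and open points did not. Dashed lines mark 2-fold and the dotted line the median of all tested genes. The deoxynucleotide genes are filled in the first comparison, and 3 purine genes are filled to the left of zero in the second.

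The pyrimidine enzymes passed in different comparisons. Umps rose from naive to activated B cells and Cad did not, while Cad rose from activated B cells to plasma cells and Umps did not. Their median of 0.50 in activated against naive B cells and 0.51 in plasma cells against activated B cells is therefore the middle of unlike values. Against naive B cells both had a log2 change above 0 in plasma cells, with a median of 1.01, and Cad passed.

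Cad was at 18.3, 17.8 and 19.3 TPM in naive B cells, 12.3, 15.3 and 16.7 in activated B cells and 48.2, 62.1 and 37.7 in plasma cells. Plasma cells were highest and activated B cells lowest, with no overlap. Its log2 change was -0.34 (interval -0.82 to 0.15, adjusted p = 0.238) in activated against naive B cells. It rose 3.25-fold in plasma cells against activated B cells (log2 change 1.70 ± 0.20, adjusted p = 3.41e-05) and was 2.57-fold higher than in naive B cells (1.36 ± 0.19, adjusted p = 0.000109). With Ig genes kept in the table and each library scaled to the table's sum these changes were 0.52 and 0.17, and neither passed. On the deposited TPM of that table Cad averaged 17.30, 13.22 and 14.31 in the 3 groups, the plasma cell libraries overlapped both others, and the mean was lower than in naive B cells (log2 ratio of means -0.27).

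Umps was at 24.6, 20.9 and 24.1 TPM in naive B cells, 79.7, 43.6 and 60.9 in activated B cells and 35.0, 41.3 and 34.1 in plasma cells. The spread among activated B cells was wide, yet all 3 lay above the plasma cells and these above the naive B cells. The rise from naive to activated B cells was 2.53-fold (log2 change 1.34 ± 0.21, adjusted p = 0.000671). The log2 change was -0.68 (interval -1.12 to -0.25, adjusted p = 0.013) from there to plasma cells and 0.65 (interval 0.16 to 1.14, adjusted p = 0.0255) between naive B cells and plasma cells, both under 2-fold. Umps relative to Cad averaged 1.25 ± 0.086, 4.33 ± 1.92 and 0.766 ± 0.125 in the 3 groups, and Cad was the more abundant in plasma cells only (exact permutation p = 0.1 for each pair, the smallest possible value).

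By the same measure as above, the genes most like the purine members were Atpaf1, Hnrnpc, Capza2, Rassf4 and Ccnt2, at correlations of 0.991 to 0.996. Those most like the pyrimidine members were Mut, Cdc16, Ncaph2, Cmss1 and Cdkn2c at 0.979 to 0.988. Cad and Umps themselves correlated at -0.18 over the 9 libraries, so the mean pattern of the pair resembles neither closely.

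How much of the RNA is Ig transcript bears on these values. Leaving the Ig genes out raised the TPM of all other genes by a factor of 1.07 in naive B cells, 1.11 to 1.13 in activated B cells and 3.33 to 3.60 in plasma cells. With Ig genes kept, the mean of Rrm2 was 15.85, 274.72 and 93.93 TPM in the 3 groups and that of Impdh2 was 108.83, 120.13 and 11.92. The rise of Cad in plasma cells is thus one relative to transcripts other than Ig. The genes of the table with Ig summed to 93.7 to 93.8% of the fixed TPM total in naive B cells, 90.3 to 91.3% in activated B cells and 67.2 to 70.0% in plasma cells, and the fit scaled each library to its sum, so its log2 changes for plasma cells lie above those of the deposited TPM. In that fit 8 members were lower and 0 higher in plasma cells than in activated B cells, and the median of all genes moved by -1.0. The signs for Rrm1 and Umps between plasma cells and naive B cells turned with it, to -0.54 and -0.53, where the deposited TPM gave log2 ratios of means of -1.02 for both. By contrast, median-of-ratios scaling without Ig genes moved the median of all genes by 0.38 in plasma cells against activated B cells and by 0.49 against naive B cells. Against activated B cells the log2 change of Rrm1 was then -0.80, that of Gart was -0.86, and neither passed. Impdh2 passed in both plasma cell comparisons under each scaling, as did Paics against activated B cells and Rrm2 against naive B cells.

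**Figure D4:**
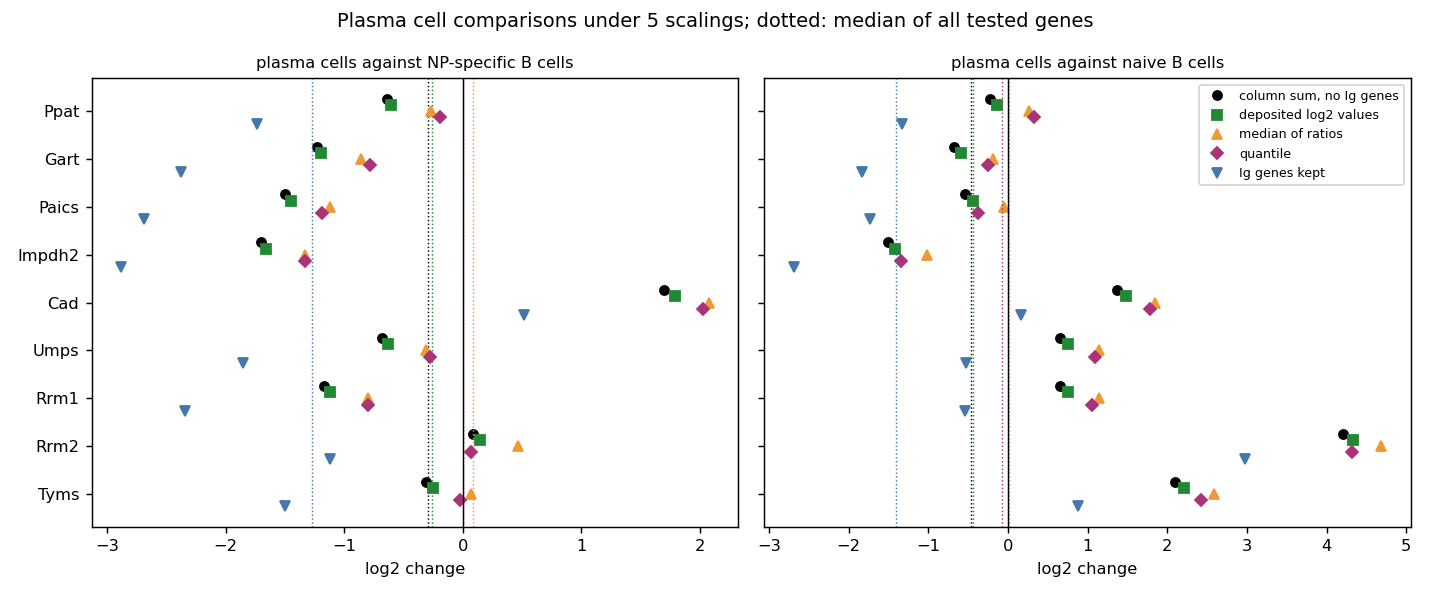
Log2 change of each member in plasma cells against activated B cells and against naive B cells (horizontal axes) under 5 scalings; dotted lines are the medians of all tested genes under each. Keeping Ig genes, with libraries scaled to that table's sum, shifts all members to the left, and Impdh2 stays below zero under all 5.

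The surrounding pathway was described with a list of 59 other genes of nucleotide metabolism, of which 50 were tested. In activated against naive B cells 13 were higher and 5 lower, with a median log2 change of 0.39. The 5 became 3 under median-of-ratios scaling and without naive replicate 1, activated B cell replicate 1 or activated B cell replicate 3. In plasma cells against activated B cells 8 were higher and 23 lower, with a median of -0.79. Against naive B cells, plasma cells had 10 higher and 13 lower, with a median of -0.15. The 13 lower became 7 under median-of-ratios scaling and 29 with Ig genes kept. Those higher ranged from 7 to 18 over the alternatives, so which direction held more genes depended on the scaling. All tested genes had medians of -0.16, -0.29 and -0.47, and the shares of them that passed were 8.05% higher and 10.5% lower in the first comparison, 10% and 22.1% in the second and 11.5% and 26.2% in the third. In the second comparison the genes lower were 11 under median-of-ratios scaling and 10 under quantile normalization.

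In activated against naive B cells salvage and thymidylate supply held large rises. Ada, adenosine deaminase, went from a mean of 5.53 to 102.7 TPM (log2 change 4.04, adjusted p = 1.56e-05). Dut, which makes the substrate of Tyms, rose by 1.92 (adjusted p = 5.05e-06). Uck2, a uridine-cytidine kinase, rose by 1.85 (adjusted p = 0.000222). Besides that of Impdh1, large falls were those of Tk2, the mitochondrial thymidine kinase, by 1.13 (adjusted p = 3.83e-05), and of Ctps2, a CTP synthase, by 1.10 (adjusted p = 1.78e-05). Under median-of-ratios scaling Ctps2 was at -0.99 and did not pass. By group, salvage had 6 of 13 tested genes higher and 1 lower, the deoxynucleotide and thymidylate group 3 of 7 higher and 0 lower, and one-carbon supply 2 of 10 higher and 2 lower, beside 8.05% higher and 10.5% lower over all tested genes.

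Between activated B cells and plasma cells, losses outnumbered gains in most groups. Of the 9 other purine genes 5 fell and 2 rose. The 5 that fell, named after their values were seen, were Prps2, Pfas, Adsl, Atic and Adss, with log2 changes from -1.38 to -1.17. Under quantile normalization all 5 fell short of 2-fold (-0.94 to -0.75), as did all but Atic under median-of-ratios scaling (-0.97 to -0.79) and Pfas without activated B cell replicate 1 (-0.87). Salvage had 7 of 13 lower and 1 higher, where 22.1% of all tested genes were lower and 10% higher. Tk2 fell by 3.23 (adjusted p = 1.79e-07), Ampd3, an AMP deaminase, by 2.64 (adjusted p = 4.42e-05), Pnp, purine nucleoside phosphorylase, by 2.18 (adjusted p = 1.39e-06) and Dguok, the mitochondrial deoxyguanosine kinase, by 1.77 (adjusted p = 1.79e-06). After Impdh1, the largest rises were in Nme2, a nucleoside diphosphate kinase, by 2.44 (adjusted p = 4.82e-08), Aldh1l2, a mitochondrial folate enzyme, by 1.75 (adjusted p = 0.000136), and Adk, adenosine kinase, by 1.37 (adjusted p = 4.8e-06). Aldh1l2 (0.62) and Adk (0.16) no longer passed with Ig genes kept. Nme2 and Nme1 are near copies, so how reads were split between them is uncertain.

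Plasma cells against naive B cells combined these changes. Ada (5.53 against 123.3 TPM, log2 change 4.34, adjusted p = 1.82e-06), Adk (3.18, adjusted p = 3.14e-08), Cmpk1, which phosphorylates UMP and CMP (2.97, adjusted p = 3.2e-08), and Nme2 (2.71, adjusted p = 1.95e-08) rose most. Tk2 went from 85.9 to 3.79 TPM (log2 change -4.36, adjusted p = 1.06e-08) and Ampd3 from 8.27 to 0.503 TPM (-3.13, adjusted p = 8.38e-06). Uckl1, a uridine-cytidine kinase homologue, and Ctps2 each had a log2 change of -2.15 (adjusted p = 4.14e-06 and 4.78e-08). Mthfd2l, a paralog of the folate enzyme Mthfd2, was too low to test, at means of 0.630, 0.779 and 0.281 TPM.

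**Figure D5:**
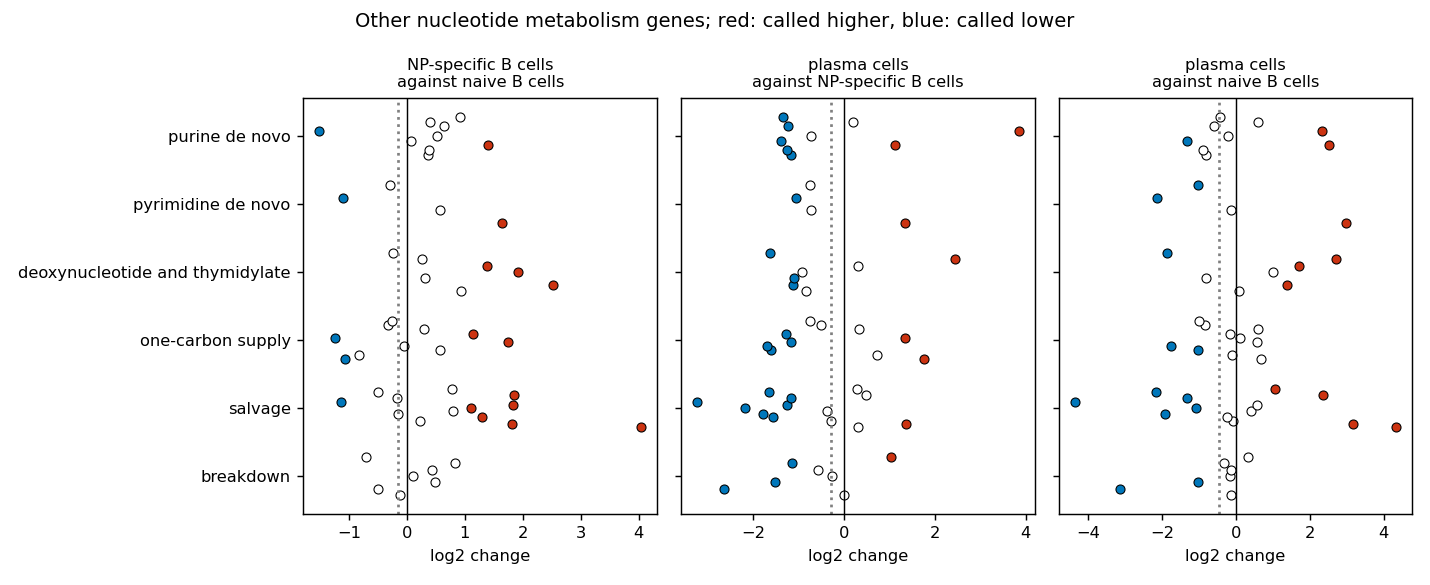
Log2 changes of the 50 tested genes of the pathway list (horizontal axes) by group of genes in the 3 comparisons. Red points passed higher, blue points passed lower, open points did not pass, and the dotted line is the median of all tested genes. Blue points outnumber red ones in plasma cells against activated B cells, where Impdh1 is the point farthest to the right.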

How the data were processed

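RNA of 9 sorted samples had been reverse transcribed with SMART-Seq v4, made into libraries with Nextera XT and sequenced on 2 kinds of instrument, and which instrument read which library is not given in the sources used here. The authors pseudoaligned the reads with kallisto, with a transcript annotation that is not given in the sources used here, and deposited TPM per gene symbol. They also deposited log2 values made from the same estimates with voom, used here for depth and for 1 alternative. The submitters' processing notes name mm10. Both kinds of value came with and without Ig genes, and the tables without them were used except where stated.

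The 12892 genes that reached a TPM of 1 in 3 or more libraries were fitted with voom and limma (3.58.1, R 4.3.3) on TPM scaled to the column sum, with an offset of 0.5, 3 group means, all 9 libraries and no block. Since the offset is added to TPM before the log2 is taken, changes of low genes are understated. P-values were adjusted by Benjamini-Hochberg over all genes tested. The fit was tested on simulated data. Motifs, gene models and shared sequence were read from RefSeq and GENCODE with Python 3.11.15. Depth was recovered from the log2 value shared by genes at 0. Estimated reads are not independent molecules.

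The members, gene lists and tests were chosen with earlier results of these data known. The ratios Paics to Ppat and Umps to Cad and the permutation tests of ratios were not part of the plan. Beyond the 9 members, genes were named by rule: the 4 largest rises and 4 largest falls of the pathway list in each comparison, the paralogs Rrm2b, Impdh1 and Mthfd2l, the 5 genes most alike per step, and a neighbour starting within 1000 bases. Replicate numbers are in the labels, and whether a number marks 1 mouse is not stated. In the alternative with Ig genes kept, libraries were scaled to the sum of that table, which is lower in plasma cells, and not to the fixed TPM total. Alternatives changed scaling, filter, pseudocount, thresholds, block, table and libraries. Protein sequences were not used here, and some genes that this rule takes are not reported here.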

Additional observations from a re-analysis of the deposited data

How the results depend on the processing

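Each member's log2 change was recomputed under 19 alternatives, which gave 513 values: 484 kept their direction and side of the test, 14 newly passed, 7 no longer passed and 8 changed sign. The sign changes were Impdh2 in activated against naive B cells under quantile normalization (-0.016), Ppat in plasma cells against naive B cells under median-of-ratios scaling (0.26) and quantile normalization (0.32), Rrm1 (-0.54) and Umps (-0.53) in the same comparison with Ig genes kept, and, in plasma cells against activated B cells, Rrm2 without activated B cell replicate 2 (-0.10, where the range over left-out libraries reached 0.24) and with Ig genes kept (-1.12, adjusted p = 0.000161) and Tyms under median-of-ratios scaling (0.069). None of these had passed in the main test. Between plasma cells and naive B cells Rrm1 passed under median-of-ratios scaling (1.14) and quantile normalization (1.05), as did Umps (1.14 and 1.09). Tyms there no longer passed with Ig genes kept (0.88). The cause was not tested, beyond what the scaling itself does to all genes.

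In activated against naive B cells, members higher were 4 and became 7 by adjusted p alone. In plasma cells against activated B cells, members higher went from 1 to 0 with Ig genes kept, and members lower from 4 to 8 with Ig genes kept and to 2 under median-of-ratios scaling and under quantile normalization. Between plasma cells and naive B cells, members higher went from 3 to 5 under median-of-ratios scaling, quantile normalization and adjusted p alone and to 1 with Ig genes kept, and members lower from 1 to 4 with Ig genes kept and 3 by adjusted p alone.

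For the pathway list, genes higher in activated than in naive B cells were 25 and genes lower 8 by adjusted p alone, and genes lower were 3 under median-of-ratios scaling. In plasma cells against activated B cells, 2 were higher and 35 lower with Ig genes kept, and 10 and 11 were lower under quantile normalization and median-of-ratios scaling. In plasma cells against naive B cells, 16 were higher under median-of-ratios scaling and 18 by adjusted p alone, and 29 were lower with Ig genes kept, 7 under median-of-ratios scaling and 8 under quantile normalization. Over all tested genes, passing genes in the 3 comparisons numbered 1177, 2640 and 2969 with a mean TPM of at least 10, and 5465, 6940 and 7786 by adjusted p alone, and 7768 and 8501 in the plasma cell comparisons with Ig genes kept. With Ig genes kept these split into 420 higher and 7348 lower, and 551 and 7950. Under median-of-ratios scaling the splits were 1258 and 1022, 2023 and 1788, and 2349 and 1814, and under quantile normalization 1157 and 976, 1795 and 1842, and 2063 and 2046.

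Leaving out 1 library at a time gave 4 to 5 members higher in activated against naive B cells and changed no other count of members. Pathway genes lower in that comparison numbered 3 to 5. It was 3 without naive replicate 1 and without activated B cell replicate 1 or 3. With the replicate block, every count of members and of pathway genes was the same, and the passing genes numbered 2446, 4233 and 4879. The pairing was checked by the correlation of deviations from group means: the 9 pairs of the same number had values from -0.075 to 0.068, 0 of them over 0.1, and a library correlated best with its own number in 2, 1 and 4 of 6 cases. The numbers were therefore not taken to pair libraries. Of the 59 genes of the pathway list, 9 did not reach the TPM minimum, and the part of depth in this was not tested.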

Other observations

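Of 7 tested genes of nucleotide breakdown, 0 passed between activated and naive B cells (3 higher and 1 lower by limma's adjusted p-value alone), and 1 was higher and 3 lower in plasma cells than in activated B cells, beside 18.5% of all tested genes in the former comparison and 10% higher and 22.1% lower in the latter. The gene that rose, named after its values were seen, was Samhd1, the enzyme that breaks down deoxynucleotides, with a log2 change of 1.03, which lost its call without activated B cell replicate 3 (0.99), without plasma cell replicate 2 (0.94), under quantile normalization (0.94) and with Ig genes kept (-0.18). In one-carbon supply, Mthfd2 and Shmt1 rose in activated against naive B cells by 1.74 and 1.14, and both fell in plasma cells against activated B cells by 1.16 and 1.29. These genes too were chosen after their values were seen. Shmt1 no longer passed in the former comparison without activated B cell replicate 1 (0.94). Both fell short of 2-fold in the latter under median-of-ratios scaling (-0.79 and -0.92) and quantile normalization (-0.71 and -0.82).

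Plasma cell replicate 3 also held transcripts of genes of the list that were too low to test, named after their values were seen: Uox, urate oxidase, was at 0, 0.097 and 26.8 TPM in the 3 plasma cell libraries, and Aldh1l1 at 0.575, 0.488 and 8.90. Alb, a liver marker, was at 660.5 TPM in that library and at 0.166 and 0.081 in the other plasma cell libraries.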
